A study of Mus musculus with 6 samples.

Results

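The genes described here switch off the response of a photoreceptor to light and reset it through calcium. They were taken by name as the 10 genes *Sag*, *Grk1*, *Rcvrn*, *Rgs9*, *Rgs9bp*, *Gnb5*, *Gucy2e*, *Guca1a*, *Guca1b* and *Pdc*, out of 31169 genes in the deposited table, and all 10 were among the 17707 genes that passed the filter on low counts. The study asked how raised eye pressure, produced by microbeads that block fluid outflow from the front of the eye, alters the retina and its ganglion cells. Poly(A) RNA was sequenced from whole retina of C57BL/6 mice, 3 libraries from saline-injected mice and 3 from microbead-injected mice. Each mouse was injected into the anterior chamber at 1 month of age, with saline or with 15 µm beads, and the retina was taken 4 weeks later, at 2 months of age. No transgene or deletion is named for either group, and both groups received an injection, so that the saline libraries are the control for the injection itself. Pressure readings for the sequenced eyes were not used here, and the records do not say whether each library came from 1 animal, so the p-values measure the spread between these libraries.

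In a rod, light activates a receptor that activates transducin and in turn the phosphodiesterase that breaks down cGMP and closes the cation channel. Shutoff needs each of these steps undone. The receptor kinase, encoded by *Grk1*, phosphorylates the active receptor and arrestin, encoded by *Sag*, then caps it. Recoverin, encoded by *Rcvrn*, restrains the kinase when calcium is high. Transducin is returned to its resting state by a complex of the GTPase-activating protein RGS9, its partner Gβ5 and the membrane anchor R9AP, encoded by *Rgs9*, *Gnb5* and *Rgs9bp*. The fall of calcium in light releases the calcium-bound brake on guanylate cyclase, encoded by *Gucy2e*, through the sensors GCAP1 and GCAP2, encoded by *Guca1a* and *Guca1b*, so that cGMP is made again. Phosducin, encoded by *Pdc*, binds the βγ subunits of transducin. Since these were whole retinas, fewer photoreceptors and less RNA per photoreceptor cannot be told apart in any value below.

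The sequences upstream of 7 of the 10 genes were at hand in the RefSeq windows (GRCm38.p6, 250 bases before to 50 after the annotated start), and 4 of them are printed because they show where the set differs in sequence. They run 5′ to 3′ on the gene's strand and end at the base before the start. Capitals mark TAATCC, the core recognised by the photoreceptor factor CRX, and TGCTGA, the core of the half-site bound by the rod factor NRL, each on either strand (GGATTA and TCAGCA on the other). *Pdc* lies at chr1:150319167-150319416 on the plus strand, *Sag* at chr1:87803430-87803679 on the plus strand, *Gucy2e* at chr11:69237023-69237272 on the minus strand and *Guca1a* at chr17:47400607-47400856 on the minus strand.
Pdc: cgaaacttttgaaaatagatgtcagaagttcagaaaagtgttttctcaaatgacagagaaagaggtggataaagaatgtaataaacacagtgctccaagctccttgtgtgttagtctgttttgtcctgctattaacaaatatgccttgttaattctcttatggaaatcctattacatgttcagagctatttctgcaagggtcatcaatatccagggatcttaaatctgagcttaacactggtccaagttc
Sag: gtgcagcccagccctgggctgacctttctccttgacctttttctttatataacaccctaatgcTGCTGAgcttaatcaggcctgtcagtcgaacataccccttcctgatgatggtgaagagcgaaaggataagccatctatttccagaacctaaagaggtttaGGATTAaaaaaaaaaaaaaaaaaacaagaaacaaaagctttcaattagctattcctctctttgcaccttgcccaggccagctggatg
Gucy2e: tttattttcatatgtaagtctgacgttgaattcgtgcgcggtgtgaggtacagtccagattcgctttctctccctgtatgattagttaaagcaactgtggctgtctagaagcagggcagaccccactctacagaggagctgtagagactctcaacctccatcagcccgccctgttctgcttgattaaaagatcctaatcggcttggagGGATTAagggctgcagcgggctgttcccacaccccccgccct
Guca1a: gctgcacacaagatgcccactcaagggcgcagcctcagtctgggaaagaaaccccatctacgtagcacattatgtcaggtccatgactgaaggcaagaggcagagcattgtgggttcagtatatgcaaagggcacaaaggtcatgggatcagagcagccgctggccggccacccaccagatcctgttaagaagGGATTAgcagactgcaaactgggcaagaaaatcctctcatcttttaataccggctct
TAATCC was present in 4 of the 7 windows, those of *Sag*, *Gnb5*, *Gucy2e* and *Guca1a*, against 7.06% of 32851 windows of the same length. TGCTGA was in 3 of the 7, those of *Sag*, *Grk1* and *Rgs9*, against 19.5% of all windows, and CAGCTG, an E-box that reads the same on both strands, was in 2 of the 7, those of *Sag* and *Rgs9*, against 16.3%. The *Pdc* window held none of these letters, which says nothing about which factors act there.

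The 6 libraries held between 13574949 and 46481382 counts, with each saline library deeper than each microbead library. The sample titles run on in a single numbering, but the library names in the sample descriptions have 1 prefix for saline and a different prefix for microbeads, so that treatment and whatever the prefix marks cannot be told apart. Levels are in CPM (counts scaled to 1000000 per library after TMM scaling). Summed over 10 rod identity genes, the level was 16761 to 21475 CPM after saline and 13625 to 15761 CPM after microbead injection, and the groups did not overlap. Summed over 8 pigment epithelium markers it was 27.2 to 272 CPM after saline and 138 to 162 CPM after microbeads, and over 8 ganglion cell markers 367 to 1346 CPM and 893 to 1222 CPM. Saline replicate 3 was highest of the saline libraries for the Müller glia sum (9140 CPM against 5319 and 6110), the pigment epithelium sum and the lens sum (321 CPM against 2.59 and 30.0; 1.49 to 3.12 CPM in the microbead libraries, with *Crygb* and *Crygc* at 0 counts in each). Of 8 Müller glia markers 2 fell, *Dkk3* (log2 fold change -1.03, adjusted p = 0.0242) and *Vim* (-0.79, 0.0438), and of the 8 pigment epithelium, 8 ganglion cell, 7 bipolar and 6 amacrine cell markers none was called. Of the 10 lens genes 3 could be tested and 1 fell. Over all tested genes 6.31% were called lower. Saline replicate 1 was lowest of the saline libraries for the ganglion cell sum (367 CPM against 1050 and 1346). The part of these differences in the results was not tested. Values from fits without saline replicate 3 are given below for some genes, and none is given for *Dkk3* or *Vim*.

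Of the 10 genes, 1 rose and none fell past an adjusted p of 0.05. *Pdc* was higher in the microbead retinas, where 6.46% of all tested genes were called higher and 6.31% lower, or 12.8% in either direction. The other 9 genes did not pass, of which 8 had a negative log2 fold change, and the median over the 10 was -0.29 against -0.03 over all tested genes. The saline and microbead libraries did not overlap for 2 of the 10, *Guca1b* and *Pdc*, and did not overlap for 37.8% of all tested genes, so that neither count is read as a result about the set. DESeq2 called 3 of the 10 (*Grk1* and *Guca1b* lower, *Pdc* higher) while calling 20.2% of all genes. With an offset for GC content and length, 2 of the 10 (*Guca1a* and *Guca1b*, both lower) and 17.5% of all genes were called.

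**Figure D1:**
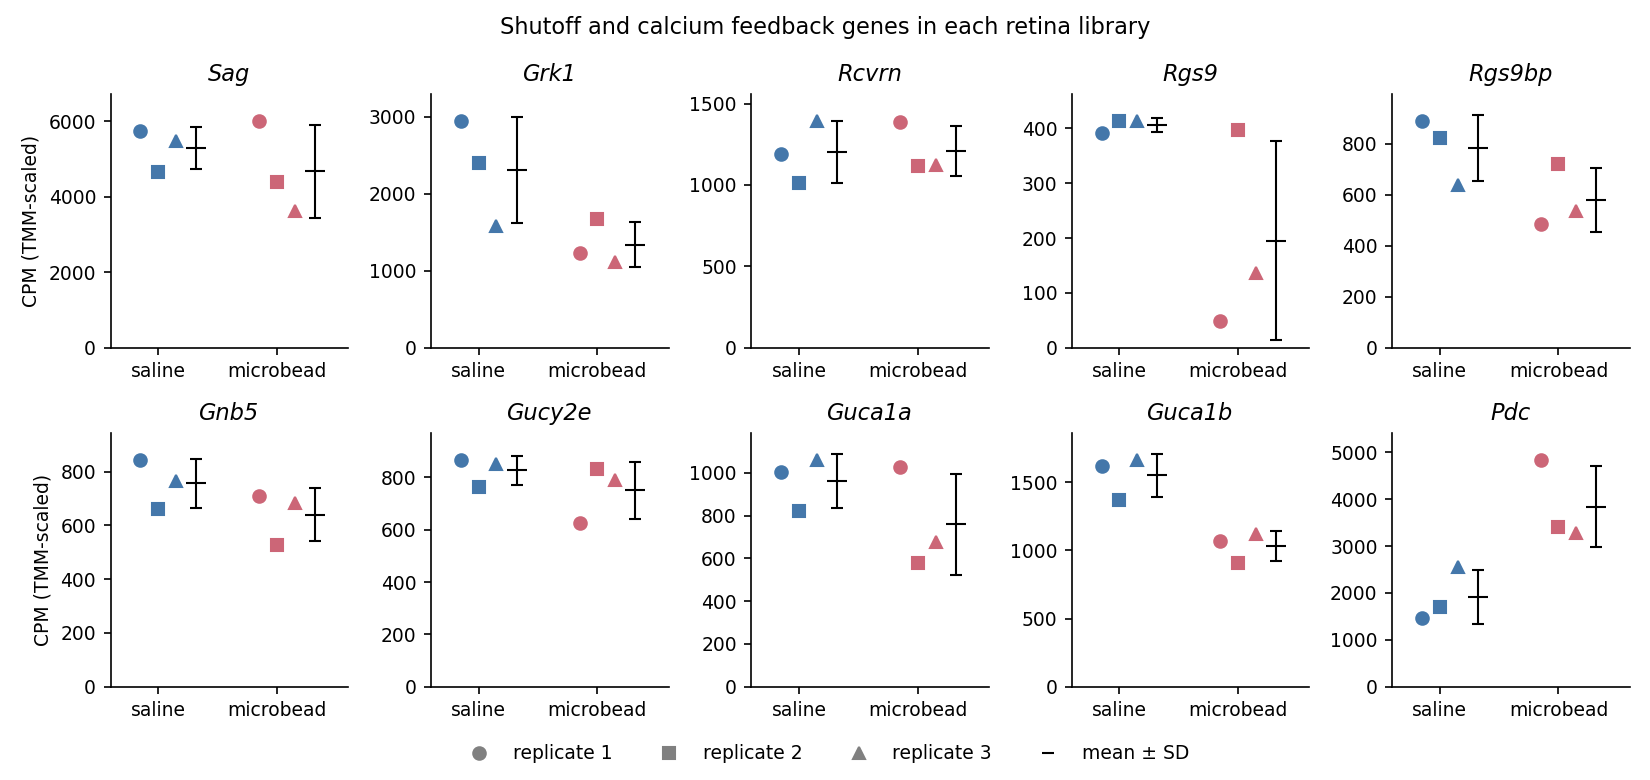
CPM of each of the 10 genes (y axis, from 0, on a scale of its own for each gene) in the saline and microbead libraries (x axis), with 1 point per library, replicates by marker shape, and the mean ± SD beside them (n = 3 per group). The *Pdc* libraries separate with microbead values of 3282 to 4845 CPM above saline values of 1468 to 2562 CPM, the *Guca1b* libraries separate in the other direction, and the 3 microbead libraries of *Rgs9* spread from 49.3 to 398 CPM.

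Phosducin was the gene that moved. *Pdc* (ENSMUSG00000006007.14, chromosome 1, 150319417 to 150333906, plus strand, 4 exons in its principal transcript) stood at 1468, 1691 and 2562 CPM in saline replicates 1, 2 and 3, and at 4845, 3405 and 3282 CPM in microbead replicates 1, 2 and 3. Each microbead library lay above each saline library. The mean went from 1907 ± 578 CPM to 3844 ± 869 CPM (SD, n = 3 each), a log2 fold change of 1.01 (SE 0.26, 95% interval 0.43 to 1.59, adjusted p = 0.0362), or 2.02-fold. The counts behind these values were 47161 to 94144 per library, so that the spread between libraries and not the counting error set the interval.

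The call on *Pdc* sat close to the threshold. It held in 1 of the 6 fits that left out a library, that without saline replicate 3, where the log2 fold change was 1.28 (adjusted p = 0.0160). It was lost without saline replicate 1 (0.85, adjusted p = 0.0561), saline replicate 2 (0.93, 0.122), microbead replicate 1 (0.80, 0.106), microbead replicate 2 (1.11, 0.0736) and microbead replicate 3 (1.10, 0.105). With the offset for GC content and length it was 0.90 (adjusted p = 0.0528). The transcripts of *Pdc* are 39.8% GC, and 4.22% of tested genes have a lower share. Among genes of at least 10 CPM with under 42% GC, the median log2 fold change was -0.11, and in the other bins of GC it lay between -0.10 and -0.01. The genes *2310030A07Rik*, on the opposite strand, and *Gm37764* overlap *Pdc* without sharing exon bases, and had 18 to 67 and 60 to 266 counts per library, too few to change its value.

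**Figure D2:**
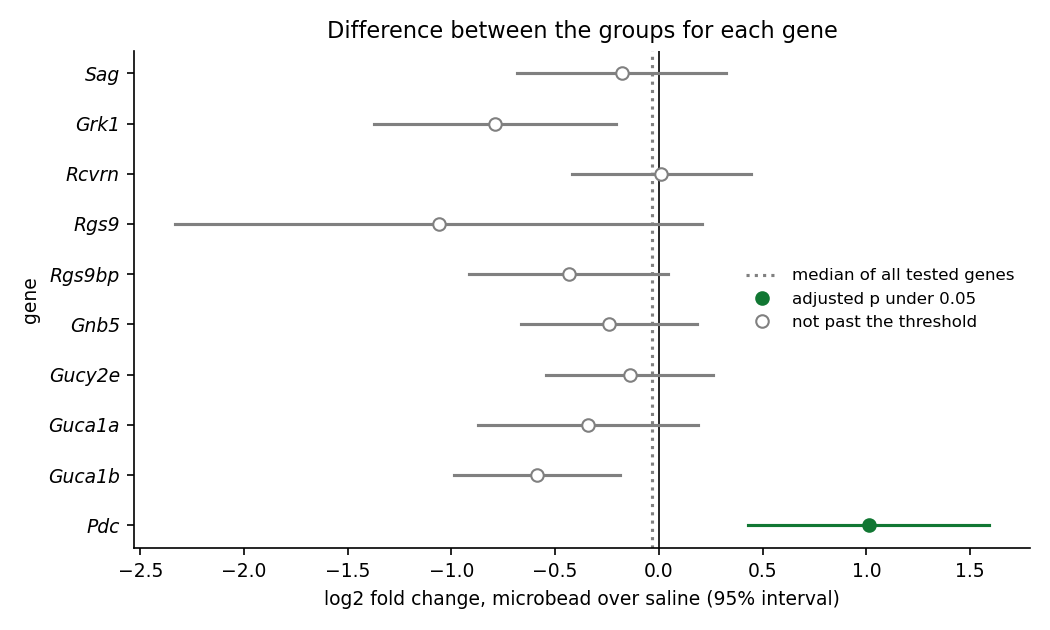
Log2 fold change of each gene, microbead over saline (x axis), with its 95% interval from edgeR's quasi-likelihood fit (3 libraries per group), the genes on the y axis and the median of all tested genes as a dotted line. The filled point, *Pdc* at 1.01, is past an adjusted p of 0.05, and the intervals of *Grk1* and *Guca1b* also exclude 0 before adjustment over all genes.

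The genes that act on the light receptor itself did not pass the threshold. *Sag* (ENSMUSG00000056055.13, chromosome 1, 87803680 to 87845158, plus strand), the rod arrestin, stood at 5732, 4653 and 5488 CPM after saline and 6015, 4380 and 3619 CPM after microbeads. The highest and the lowest value both came from microbead libraries, and the log2 fold change was -0.18 (SE 0.22, 95% interval -0.68 to 0.32, adjusted p = 0.625). *Grk1* (ENSMUSG00000031450.8, chromosome 8, 13405081 to 13421951, plus strand), the kinase, stood at 2947, 2399 and 1581 CPM after saline and 1228, 1668 and 1112 CPM after microbeads. Its groups overlapped through saline replicate 3, which lay below microbead replicate 2. The mean was 2309 ± 687 CPM and 1336 ± 294 CPM, with a log2 fold change of -0.79 (SE 0.26, 95% interval -1.37 to -0.20, adjusted p = 0.0736). Without saline replicate 3 it was -1.002 (adjusted p = 0.0277), the 1 fit that passed of the 6 that left out a library. In the others the adjusted p ran from 0.0868 to 0.228. Without saline replicate 1 the log2 fold change was -0.58 (adjusted p = 0.147). Shared stretches of 100 bases with other annotated transcripts made up 1.28% of the *Sag* and 1.78% of the *Grk1* transcript sequence.

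Recoverin, which holds the kinase back, had nearly equal means in both groups. *Rcvrn* (ENSMUSG00000020907.1, chromosome 11, 67695326 to 67703333, plus strand) stood at 1192, 1013 and 1395 CPM after saline and 1387, 1117 and 1125 CPM after microbeads, and both ranges covered nearly the same values. Its log2 fold change was 0.01 (SE 0.19, adjusted p = 0.978), with a 95% interval of -0.42 to 0.44. Differences in either direction within that interval are not excluded. *Rcvrn* lies within the span of *Glp2r*, a receptor gene on the opposite strand, without shared exon bases. *Glp2r* was called higher, at 83.2 ± 12.7 CPM after saline and 242 ± 74.4 CPM after microbeads (log2 fold change 1.54, adjusted p = 0.0128; 0.0700 without microbead replicate 3). The log2 ratio of *Rcvrn* to *Grk1* counts within a library was -1.31, -1.24 and -0.18 after saline and 0.18, -0.58 and 0.02 after microbeads, a difference of 0.78 in which saline replicate 3 lay among the microbead libraries.

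The genes of the complex that returns transducin to rest had lower means after microbeads. None passed the threshold, and *Rgs9* was uneven between the microbead libraries. *Rgs9* (ENSMUSG00000020599.13, chromosome 11, 109225355 to 109298129, minus strand), the catalytic part, stood at 391, 413 and 414 CPM after saline and at 49.3, 398 and 137 CPM after microbeads. The saline libraries were nearly equal, while microbead replicate 2 lay within their range and the other two microbead libraries far below it. Its log2 fold change was -1.06 (SE 0.57, 95% interval -2.33 to 0.21, adjusted p = 0.233). It was -0.61 without microbead replicate 1 (adjusted p = 0.347) and -2.11 without microbead replicate 2 (adjusted p = 0.0435). The counts were 957, 5513 and 2111 in microbead replicates 1, 2 and 3, so that depth did not limit these values.

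The spread of *Rgs9* set it apart from the rest of the set as a description. Its highest microbead library was 8.08 times its lowest, and 0.0676% of the 10351 genes with a mean of at least 10 CPM had a larger ratio. After saline the same ratio was 1.06, with a larger ratio in 96.3% of those genes. For the other 9 genes of the set the microbead ratio ran from 1.23 (*Guca1b*) to 1.78 (*Guca1a*).

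The partners of RGS9 did not share that spread. *Rgs9bp* (ENSMUSG00000056043.5, chromosome 7, 35578993 to 35585582, minus strand, 1 exon), the anchor, stood at 890.0, 822 and 637 CPM after saline and 484, 720.1 and 534 CPM after microbeads. Microbead replicate 1 was lowest and microbead replicate 2 highest of its group, the order seen for *Rgs9*, over a range of 1.49-fold. Its log2 fold change was -0.43 (SE 0.21, 95% interval -0.91 to 0.04, adjusted p = 0.197). *Gnb5* (ENSMUSG00000032192.9, chromosome 9, 75306288 to 75345876, plus strand), which many neurons express, stood at 845, 663 and 765 CPM after saline and 711, 529 and 682 CPM after microbeads, in overlapping ranges (log2 fold change -0.24, SE 0.19, adjusted p = 0.416). It overlaps the antisense genes *Gm19531* and *Gm48677* over 248 exon bases, and the strand setting of the counting is not given in the sources used here. Within a library, the log2 ratio of *Gnb5* to *Rgs9* counts was 1.11, 0.68 and 0.89 after saline and 3.85, 0.41 and 2.31 after microbeads. This ratio of RNA counts differed most between the microbead libraries themselves, and it does not measure the balance of the proteins in the complex.

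Neither the cyclase nor its sensors passed the threshold, although the libraries of 1 sensor did not overlap. *Gucy2e* (ENSMUSG00000020890.11, chromosome 11, 69218117 to 69237036, minus strand), the membrane guanylate cyclase of rods and cones, stood at 868, 765 and 852 CPM after saline and 627, 834 and 791 CPM after microbeads. The ranges overlapped and the log2 fold change was -0.14 (SE 0.18, 95% interval -0.54 to 0.26, adjusted p = 0.630). Its sensors lie next to each other on chromosome 17 with their 3′ ends facing, *Guca1b* (ENSMUSG00000023979.14) at 47385393 to 47392967 on the plus strand and *Guca1a* (ENSMUSG00000023982.7) at 47394558 to 47400584 on the minus strand.

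*Guca1b*, which encodes GCAP2, stood at 1619, 1371 and 1666 CPM after saline and 1069, 909.8 and 1119 CPM after microbeads. Each microbead library lay below each saline library, and the mean went from 1552 ± 159 CPM to 1033 ± 109 CPM. The log2 fold change was -0.59 (SE 0.18, 95% interval -0.99 to -0.19, adjusted p = 0.0598), a difference of -33.5% that missed the threshold. *Guca1a*, which encodes GCAP1, stood at 1003, 822 and 1062 CPM after saline and 1026, 576 and 676 CPM after microbeads. Microbead replicate 1 lay within the saline range and the other microbead libraries below it (log2 fold change -0.34, SE 0.24, adjusted p = 0.356). With the offset for GC content and length, *Guca1a* was -0.71 (adjusted p = 0.0477) and *Guca1b* -0.74 (adjusted p = 0.0184).

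Ratios between genes of one library do not depend on the scaling of library sizes, and 17 of them were compared. Against *Gnb1*, the rod transducin β subunit that phosducin binds, *Pdc* stood at log2 ratios of -2.08, -1.85 and -1.47 after saline and 0.02, -0.21 and -0.37 after microbeads, a difference of 1.62 with no overlap. *Gnb1* itself stood at 6473 ± 564 CPM after saline and 4316 ± 422 CPM after microbeads (log2 fold change -0.58, adjusted p = 0.0632). Part of the difference of 1.62 therefore lies in *Gnb1* and not in *Pdc*. Against *Gngt1*, the rod γ subunit, the difference was 0.46 and the groups overlapped. The log2 ratio of *Guca1b* to *Gucy2e* was 0.90, 0.84 and 0.97 after saline and 0.77, 0.13 and 0.50 after microbeads, a difference of -0.44 with no overlap, and that of *Guca1a* to *Guca1b* overlapped (difference 0.21). With 3 libraries against 3 the two-sided exact permutation test cannot go below p = 0.1, which both of these separated ratios reached, and the smallest adjusted p over the 17 was 0.486.

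**Figure D3:**
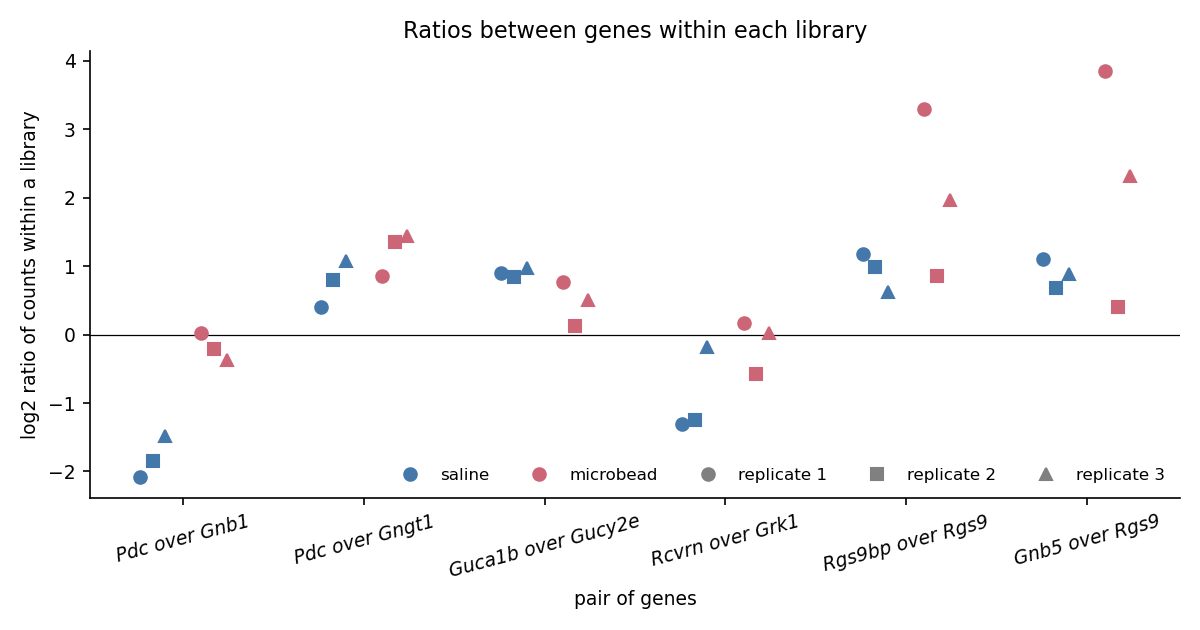
Log2 ratio of the counts of a pair of genes within a library (y axis) for 6 of the 17 pairs (x axis), with 1 point per library coloured by group and shaped by replicate. The microbead points of *Pdc* over *Gnb1* (-0.37 to 0.02) lie above the saline points (-2.08 to -1.47), while those of *Gnb5* over *Rgs9* run from 0.41 to 3.85.

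Summed over the 10 genes the groups overlapped, while the make-up of the sum did not stay the same. The summed level was 16955, 14612 and 16422 CPM after saline and 17441, 14538 and 13078 CPM after microbeads, and the ranges overlapped. *Pdc* made up 8.66%, 11.6% and 15.6% of that sum after saline and 27.8%, 23.4% and 25.1% after microbeads. Without *Pdc* the sum of the other 9 was 15487, 12921 and 13860 CPM after saline and 12596, 11133 and 9796 CPM after microbeads, where the groups did not overlap. *Pdc* was left out with its rise in these libraries known, and 8 of the 10 genes had a negative log2 fold change. That choice favoured a lower sum, and single genes did not overlap for 37.8% of all tested genes. The lower sum is therefore not read as a result about the set. The mean share of *Guca1b* was 9.69% after saline and 6.98% after microbeads, with no overlap, and *Grk1* had shares of 17.4%, 16.4% and 9.63% after saline and 7.04%, 11.5% and 8.50% after microbeads. No test is given for these sums and shares, since the genes were chosen with results of these libraries known.

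**Figure D4:**
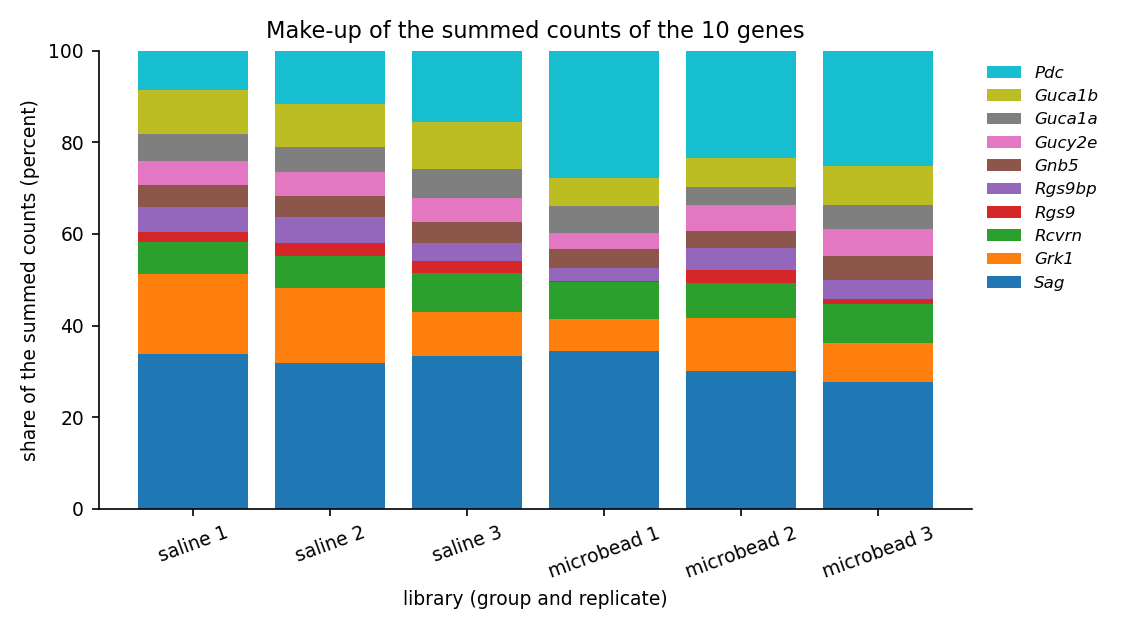
Make-up of the summed counts of the 10 genes in each library, as stacked bars from 0 to 100 percent (y axis) for the 3 saline and 3 microbead libraries (x axis), 1 colour per gene. The *Pdc* band covers 8.66% to 15.6% of the saline bars and 23.4% to 27.8% of the microbead bars.

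Levels of different genes were set side by side per kilobase of the principal transcript. After saline, *Sag* was highest at 3078 ± 329 CPM per kilobase and *Pdc* second at 1530 ± 464, followed by *Rcvrn* at 1154 ± 184, *Guca1a* at 1102 ± 143 and *Guca1b* at 930.3 ± 95.1. By mean ± SD, *Rcvrn* and *Guca1a* overlapped each other, and each overlapped both *Pdc* and *Guca1b*. *Gnb5* (420.1 ± 50.5) and *Grk1* (311 ± 92.5) came next and overlapped. *Rgs9* (176 ± 5.57), *Rgs9bp* (119 ± 19.9) and *Gucy2e* (99.4 ± 6.65) were lowest, with *Rgs9bp* and *Gucy2e* overlapping. After microbeads *Pdc* came first at 3085 ± 697 and *Sag* second at 2718 ± 712, which overlapped. *Rgs9* had the lowest mean at 84.2 ± 78.4, which overlapped *Rgs9bp* (87.9 ± 18.9) and *Gucy2e* (90.1 ± 13.1). This order depends on the length used. Over all annotated exons, *Sag* came 4th and *Pdc* 5th after saline, behind *Rcvrn*, *Guca1a* and *Guca1b*.

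Other genes of the same pathways were counted from lists named by function, with up to 2 of the largest log2 fold changes of each given. Counts called in these short lists stand beside 6.46% of all tested genes called higher and 6.31% called lower. Of 10 rod activation genes, among them the transducin, phosphodiesterase, channel and exchanger genes, none passed the threshold in either direction and the median log2 fold change was -0.20. *Gngt1* had a log2 fold change of 0.66 (adjusted p = 0.158) and *Cnga1*, a channel subunit, of -0.62 (adjusted p = 0.0941). Of 10 rod identity genes, 1 fell and none rose, with a median of -0.27. *Nrl*, the factor that sets rod fate, fell from 1842 ± 194 CPM to 941 ± 167 CPM (log2 fold change -0.97, adjusted p = 0.0192), and lost the call without saline replicate 2 (0.0588), microbead replicate 2 (0.0659) or microbead replicate 3 (0.0883).

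The cone counterpart of arrestin rose. Of 11 cone cascade genes, 1 rose and none fell, with a median of -0.18. *Arr3*, the cone arrestin, stood at 117, 109.7 and 65.1 CPM after saline and 252, 254 and 286 CPM after microbeads, with no overlap (log2 fold change 1.44, adjusted p = 0.0126; 0.0700 without microbead replicate 3). *Gngt2*, the cone γ subunit, had a log2 fold change of 0.90 (adjusted p = 0.0507). Of the partners of the cyclase, *Gucy2f*, the second retinal cyclase, stood at 195, 229.8 and 241 CPM after saline and 68.1, 193 and 100.3 CPM after microbeads, without overlap (log2 fold change -0.88, adjusted p = 0.102). Its lowest microbead value was in replicate 1 and its highest in replicate 2, the order of *Rgs9*. *Rd3*, which carries the cyclase to the outer segment, had 1 count over the 6 libraries and was not tested. The strand setting and the treatment of multi-mapped reads are not given, so this count is not read as absence of its RNA.

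Among relatives of the shutoff proteins, in the lists of 6, 7 and 10 genes below, 3 genes rose and 2 fell. Over all tested genes 6.46% were called higher and 6.31% lower, and these counts are not read as a result about the relatives. Of 6 R7-family partners of Gβ5 and their anchors, 1 rose and none fell, with a median of -0.07. *Rgs11*, an R7 protein of ON bipolar cells, rose from 48.7 ± 14.5 CPM to 113 ± 8.56 CPM (log2 fold change 1.22, adjusted p = 0.0159; 0.0602 without saline replicate 2 and 0.0812 without microbead replicate 3), and *Rgs7bp* stood at -0.65 (adjusted p = 0.144). Of 7 other arrestins and receptor kinases, 2 rose and none fell, with a median of 0.04. *Grk4* rose from 5.46 ± 0.953 CPM to 13.9 ± 1.11 CPM (log2 fold change 1.35, adjusted p = 0.0149; 0.0562 without saline replicate 2 and 0.0733 without microbead replicate 3). *Arrb2*, which encodes β-arrestin-2, rose from 23.4 ± 2.33 CPM to 47.6 ± 4.43 CPM (log2 fold change 1.02, adjusted p = 0.0141; 0.0610 and 0.0731 without the same libraries).

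Of 10 other neuronal calcium sensors of the recoverin family, 2 fell and none rose, although the median was 0.24. *Ncs1* fell from 81.0 ± 26.1 CPM to 41.1 ± 6.72 CPM (log2 fold change -0.98, adjusted p = 0.0391) and kept the call in 1 of 6 fits that left out a library, that without saline replicate 1 (range of adjusted p 0.00936 to 0.123). *Hpcal4* fell from 109.8 ± 26.1 CPM to 58.4 ± 9.11 CPM (log2 fold change -0.91, adjusted p = 0.0298) and likewise kept it in the fit without saline replicate 1 alone (0.0124 to 0.120).

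No gene passed in the remaining lists. These were 5 calmodulin and calcium-binding protein genes (median 0.11, with *Calm2* at 0.43, adjusted p = 0.260). *Cabp4* had 1 count in all and was not tested, which as for *Rd3* is not read as absence of its RNA. The 10 phosducin-like and chaperonin genes had a median of -0.22, with *Cct7* at -0.63 (adjusted p = 0.0599) and *Pdcl3* at 0.49 (adjusted p = 0.139). The 3 genes of lipid-modified protein transport held *Aipl1* at -0.44 (adjusted p = 0.141) and *Pde6d* at 0.04 (adjusted p = 0.899). The 3 phosphatase genes held *Ppef2* at 0.52 (adjusted p = 0.114) and *Ppp2cb* at -0.34 (adjusted p = 0.255).

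**Figure D5:**
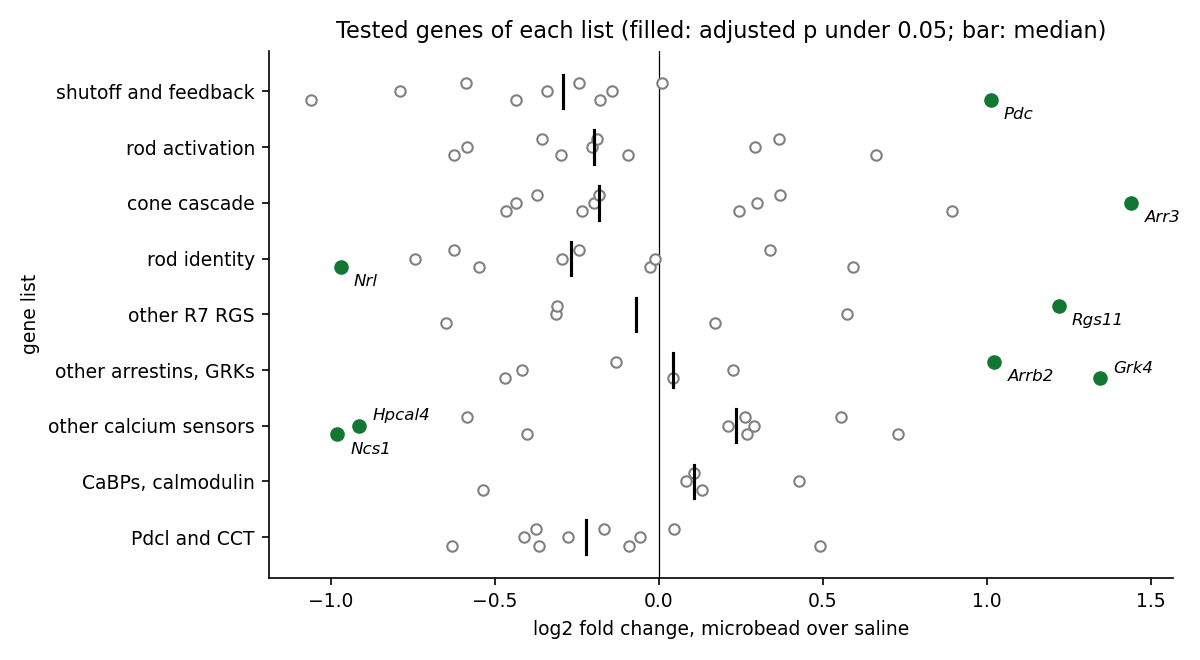
Log2 fold change, microbead over saline (x axis), of the tested genes of each list (y axis), 1 point per gene, filled where the adjusted p was under 0.05, with a bar at the list median. The shutoff genes have a median of -0.29 with 1 filled point, *Pdc*, and filled points of the other functional lists include *Arr3* at 1.44 and *Ncs1* at -0.98.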

How the data were processed

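Whole-retina poly(A) RNA was read as 100-bp pairs. The authors aligned the reads with STAR 2.5.3a to GRCm38.p5 (GENCODE annotation), counted them per gene with featureCounts 1.15.2 and deposited the raw counts of the 6 libraries without normalization. Their DESeq2 1.14 comparison stands in the same table (mean signal as normalized counts, log2 fold change, linear fold change, p-value, adjusted p-value and a mark for calls) and was not used. The strand setting and the treatment of multi-mapped reads are not given in the sources used here.

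Groups came from the sample records. Genes were filtered with filterByExpr of edgeR 4.0.16 in R 4.3.3 (minimum count 10, minimum total 15), scaled by TMM and compared with the two-sided quasi-likelihood test, adjusted by Benjamini-Hochberg over all 17707 tested genes, at a threshold of 0.05. The same steps were tested on simulated data. For ratios within a library the two-sided exact permutation test was used. Positions and lengths came from GENCODE vM21 (GRCm38), which covers 99.6% of tested genes, and upstream sequence from RefSeq. Genes named are the 10 of the set and, in each other list, the 2 with the largest log2 fold change at a mean of at least 1 CPM. Values of a few listed genes are not reported here. *Glp2r*, *Gnb1*, *Rd3*, *Cabp4*, the lens genes and the genes of the closing section were named outside this rule, after their values were seen. The genes and lists were chosen with earlier results of these data known. Alternatives were other scalings, filters and tests (DESeq2 1.42.0, limma 3.58.1), thresholds, a replicate block, a GC and length offset (splines with 5 degrees of freedom) and each library left out in turn. Between libraries of a group, chi-square over its degrees of freedom was at least 20.1, and no library was taken for a copy.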

Additional observations from a re-analysis of the deposited data

How the results depend on the processing

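*Pdc* was past the threshold in 7 of 9 other settings with all 6 libraries (adjusted p 0.00137 to 0.0723), and its log2 fold change kept its sign in each of these and in the 6 fits that left out a library. *Sag*, *Rcvrn*, *Rgs9bp*, *Gnb5* and *Gucy2e* passed in none. Over the 10 genes, the calls were 3 without the filter on low counts (*Grk1* and *Rgs9* lower, *Pdc* higher), 3 with DESeq2, 2 with the GC and length offset, 0 at an adjusted p under 0.01 and 0 to 2 with a library left out. Over all genes, 2261 calls became 3720 without the filter, 3582 with DESeq2, 87 at an adjusted p under 0.01, 1248 with more than a 2-fold change required, and 46 to 2621 with a library left out. At an unadjusted p under 0.05 there were 5564 genes (31.4%). *Rcvrn* reversed to -0.041 without the filter, -0.30 with the offset, -0.10 without saline replicate 2 and -0.10 without microbead replicate 1 (-0.10 to 0.13 with a library left out). *Pde6d* reversed to -0.0089, -0.099, -0.030 and -0.095 in the same settings (-0.09 to 0.18). The cause was not tested.

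With the replicate number as a replicate block, 905 genes and 0 of the 10 were called (*Pdc* 1.03, adjusted p = 0.0723). The deviations of same-numbered libraries correlated at -0.01, 0.26 and -0.05 over 10764 genes, not every library correlated best with its own number, and the numbers were not taken to pair the libraries.

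The lowest count of any of the 10 genes in any library was 957, so that depth limited none of the 10.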

Other observations

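The libraries in which *Rgs9* was low also held low values of other genes, which were chosen after their values were seen. Of the 7 genes with a larger ratio between microbead libraries than *Rgs9*, at a mean of at least 10 CPM, *Soga1*, *Klf12* and *Ston2* were, as *Rgs9* was, lowest in microbead replicate 1 and highest in microbead replicate 2. *Soga1* stood at 0.772, 17.5 and 7.86 CPM in microbead replicates 1, 2 and 3 and at 16.7, 28.6 and 26.2 CPM after saline. *Klf12*, a zinc finger repressor, stood at 0.823, 18.6 and 4.87 CPM and at 9.64, 16.2 and 14.5 CPM after saline. *Ston2*, an endocytic adaptor, stood at 1.75, 14.9 and 4.22 CPM and at 13.7, 13.6 and 11.95 CPM after saline.

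The next genes below *Rgs9* in that ranking include *Arid5b* and *Hipk2* with the same order. How many of all genes had that order was not counted. *Arid5b*, a chromatin regulator, stood at 3.19, 25.1 and 12.8 CPM in the microbead libraries and at 18.9, 20.2 and 15.1 CPM after saline. *Hipk2*, a nuclear kinase, stood at 10.4, 64.8 and 22.3 CPM there and at 53.8, 75.3 and 65.1 CPM after saline. None of these 5 genes was past an adjusted p of 0.05 (*Soga1* 0.201, *Klf12* 0.537, *Ston2* 0.318, *Arid5b* 0.642, *Hipk2* 0.222).

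The other 4 genes with a larger ratio than *Rgs9* did not have that order. *Cd74* and *Lyz2*, which mark immune cells, were lowest in microbead replicate 3 (0.845 and 1.69 CPM) and at 18.1 and 27.6 CPM in microbead replicate 1. *Prss56* and *Gm23935* were lowest in microbead replicate 2 (0.505 and 0.289 CPM). Why these genes varied between the microbead libraries was not tested.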
